A study of Mus musculus with 9 samples.

Results

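The E proteins are transcription factors of the basic helix-loop-helix class, and the ID proteins are their inhibitors. The genes described are Tcf3 (whose product is also called E2A), Tcf4 (E2-2), Tcf12 (HEB), Id2 and Id3. They were found by exact gene name, and all 5 were counted, each on 1 row, among 55536 genes in the table. The Tcf4 row is the E2-2 gene and not Tcf7l2, a different gene whose protein is also called TCF4.

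Transcripts were sequenced from 5 p52Ki and 4 WT libraries of mouse spleen B cells labelled pre-GC, a stage before the germinal centre, in which B cells mutate their antibody genes. The p52Ki titles read p52ki/ki, the notation for a change on both alleles of the gene for p52, a subunit of the NF-kB transcription factors. WT carries no stated change. The sources used here give no strain, age or sex of the mice, and neither the construction of the allele, any immunisation nor the sorting gate. Nor is it stated that libraries of 1 genotype came from separate mice, so the p-values measure the spread between these libraries, which may be partly technical.

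E proteins bind DNA as dimers at short motifs called E-boxes and are required for commitment to the B lineage. ID proteins keep the helix-loop-helix dimerisation domain but lack the basic region that contacts DNA, so a dimer with an ID protein does not bind. In mouse B cells Id3 is known as the ID gene of resting follicular cells and is lowered in germinal centre cells, where E2A and E2-2 act. Id2 is known for its role in natural killer cells, innate lymphoid cells and conventional dendritic cells, and Tcf4 for that in plasmacytoid dendritic cells.

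Total counts per library ran from 4492160 to 6647650 in p52Ki and from 7368604 to 7937579 in WT, and genes with a count from 15504 to 16634 and from 14033 to 14793. Genes of the B cell lineage marked every library, with 6 markers, Ms4a1 among them, summing to 11010 to 14480 CPM (counts scaled to a common library size) in p52Ki and 9689 to 10927 CPM in WT. The 8 germinal centre B cell markers summed to 958 to 2065 CPM in p52Ki, below the 3396 to 4324 CPM in WT. Of them 7 fell and 0 rose, against 4.04% and 4.49% of all genes tested. The 8 resting follicular markers summed to 1732 to 2498 CPM in p52Ki, above the 783 to 1215 CPM in WT, and 6 rose and 0 fell. Fcer2a and Cr2 were the ones not called, with log2 fold changes of -0.26 and -0.015 (edgeR adjusted p = 0.551 and 0.982). These genotype differences in markers of B cell state stand beside every result on the E protein and ID genes, and their part in those results was not tested. In bulk RNA, fewer cells of a type and less RNA per cell cannot be told apart.

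None of the 5 genes passed the test for a difference between the genotypes (edgeR's quasi-likelihood test, adjusted p from 0.155 to 0.7997), against 8.53% of the 12849 genes tested. At an unadjusted p under 0.05 the count was 1, Tcf12, against 21.4% of all genes. DESeq2, limma-voom and limma-trend also called 0 of the 5. The log2 fold changes of p52Ki over WT were above 0 for the 3 E protein genes and below 0 for both ID genes, from -0.53 to 0.88. Tcf3 and Tcf4 were below 0 under a correction for base composition and length, given after Tcf3, that lowered the median of all genes. The groups did not overlap for 1 of the 5, Id2, against 13.8% of all genes tested. The median absolute log2 fold change over all genes was 0.45.

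Tcf3 (chromosome 10, 80409514 to 80433647, minus strand, GRCm38) encodes E12 and E47, splice forms that counts per gene do not separate. It stood at 192, 174, 184, 150 and 160 CPM in p52Ki replicates 1 to 5, against 113, 233, 148 and 136 CPM in WT replicates 1 to 4. All 5 p52Ki libraries lay within the WT range, whose ends were set by WT replicates 1 and 2. The means were 172 ± 17.0 CPM in p52Ki and 158 ± 52.5 CPM in WT (SD, n = 5 and 4). The fold was 1.09, with a 95% interval of 0.802 to 1.49 (log2 fold change 0.13 ± 0.20 SE, edgeR adjusted p = 0.7997). Without WT replicate 1 the log2 value was -0.0058 and without WT replicate 2 it was 0.38 (edgeR adjusted p = 0.995 and 0.219, over all alternatives 0.219 to 0.995).

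One further setting moved genes by different amounts. A correction for base composition and length, added after seeing the data, was run with each library's offsets as fitted and again with them centred on the library's median. The uncentred form was run first, and the centred form was made after its result was seen. Uncentred, the median log2 fold change of all genes was -0.20, where it was 0.03 as reported, and 26.8% of called genes were higher in p52Ki, where it was 52.6%. It put Tcf3 at -0.05 and Tcf4 at -0.17 (edgeR adjusted p = 0.900 and 0.532), which is 0.15 and 0.03 above that median. It put Tcf12 at 0.60, Id2 at -0.71 and Id3 at -0.38 (edgeR adjusted p = 0.283, 0.106 and 0.144), which is 0.80 above and 0.52 and 0.18 below the median. Tcf3 and Tcf4 changed sign in the uncentred form, both stayed above its median, and none of the 5 passed. Centred, Tcf3 was at 0.15 and Tcf4 at 0.055, where they were 0.13 and 0.21 as reported.

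Tcf4 (chromosome 18, 69343356 to 69689079, plus strand) was the E protein gene with the most reads. It stood at 362, 280, 253, 280 and 245 CPM in p52Ki replicates 1 to 5, against 259, 239, 259 and 223 CPM in WT replicates 1 to 4. Replicates 1, 2 and 4 of p52Ki were above every WT library, and the other two fell among them. The means were 284 ± 46.2 and 245 ± 17.7 CPM in p52Ki and WT (SD, n = 5 and 4). The fold was 1.16, with a 95% interval of 0.932 to 1.44 (log2 fold change 0.21 ± 0.14 SE, edgeR adjusted p = 0.448). The log2 value was 0.11 without p52Ki replicate 1, and 0.055 with the centred base composition correction and -0.17 with the uncentred one (edgeR adjusted p = 0.7315, 0.886 and 0.532, over all alternatives 0.318 to 0.886).

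Tcf12 (chromosome 9, 71842688 to 72111871, minus strand) was the least abundant E protein gene and had the fold change of greatest size among the 5. It stood at 42.5, 38.6, 70.9, 45.7 and 71.5 CPM in p52Ki replicates 1 to 5, against 24.0, 44.8, 14.8 and 33.4 CPM in WT replicates 1 to 4. Replicates 3, 4 and 5 of p52Ki were above every WT library, while WT replicate 2 was above p52Ki replicates 1 and 2. The means were 53.8 ± 16.0 CPM in p52Ki and 29.3 ± 12.9 CPM in WT (SD, n = 5 and 4). The fold was 1.84, with a 95% interval of 1.09 to 3.09 that is not adjusted for the number of genes tested. The log2 fold change of 0.88 ± 0.34 (SE) did not pass (unadjusted p = 0.0258, edgeR adjusted p = 0.155, over all alternatives 0.0692 to 0.373). Of all genes tested, 24.8% had a larger absolute fold change and 16.6% a smaller p. The gene spans 11 other annotated genes, mostly unconfirmed transcripts and pseudogenes, of which 0 share an exon base with it.

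**Figure D1:**
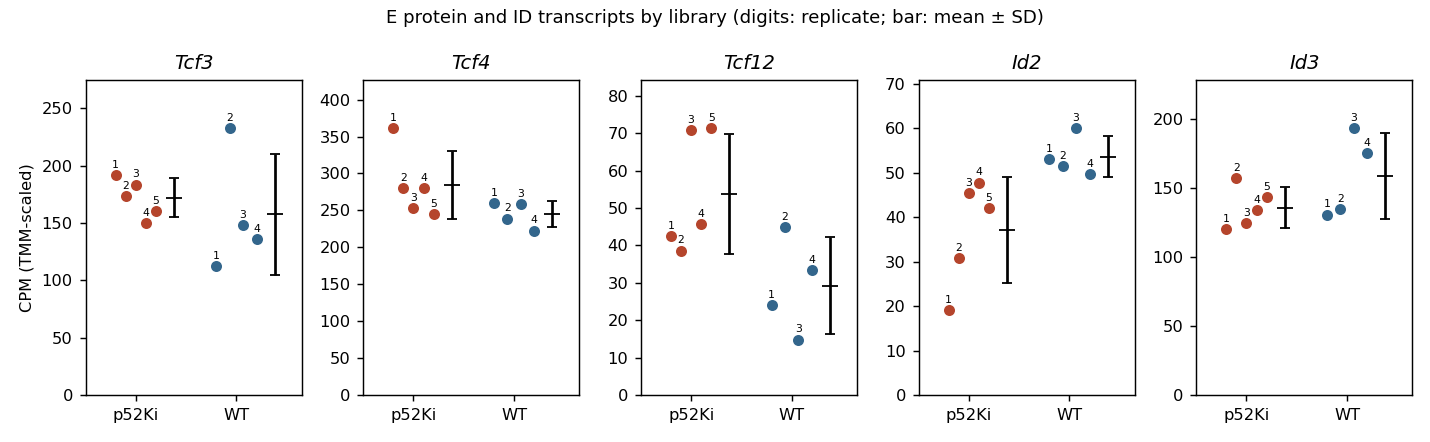
CPM of the 3 E protein and 2 ID genes in each library, p52Ki in red and WT in blue, with the replicate number above each point and the mean ± SD as a bar (n = 5 and 4). Each panel has its own axis from 0. Id2 is the gene whose p52Ki libraries (19.2 to 47.8 CPM) all lie below the WT libraries (49.6 to 60.1 CPM).

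Id2 (chromosome 12, 25093799 to 25097140, minus strand) was lower in every p52Ki library than in any WT library. It stood at 19.2, 30.9, 45.4, 47.8 and 42.1 CPM in p52Ki replicates 1 to 5, against 53.2, 51.6, 60.1 and 49.6 CPM in WT replicates 1 to 4. The p52Ki libraries spread widely, with replicates 1 and 2 far below the other three, while the WT libraries lay close together. The means were 37.1 ± 11.9 CPM in p52Ki and 53.6 ± 4.57 CPM in WT (SD, n = 5 and 4), a coefficient of variation of 32.2% and 8.53%. The fold was 0.691, with a 95% interval of 0.454 to 1.05, and the difference did not pass (log2 fold change -0.53 ± 0.28 SE, edgeR adjusted p = 0.301). Without p52Ki replicate 1 the log2 value was -0.37 (edgeR adjusted p = 0.459, over all alternatives 0.106 to 0.4785). p52Ki replicate 1 also held the highest Tcf4 and Tcf3 values of its genotype.

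Id3 (chromosome 4, 136143497 to 136145755, plus strand) was the more abundant ID gene. It stood at 120, 157, 124, 134 and 143 CPM in p52Ki replicates 1 to 5, against 130, 134, 193 and 175 CPM in WT replicates 1 to 4. WT replicates 3 and 4 were above every p52Ki library, and WT replicates 1 and 2 lay inside the p52Ki range. The means were 136 ± 14.9 CPM in p52Ki and 158 ± 30.9 CPM in WT (SD, n = 5 and 4). The fold was 0.856, with a 95% interval of 0.665 to 1.10 (log2 fold change -0.22 ± 0.17 SE, edgeR adjusted p = 0.4996). Without WT replicate 3 the log2 value was -0.093, and without WT replicate 4 it was -0.15 (edgeR adjusted p = 0.837 and 0.735, over all alternatives 0.144 to 0.837).

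The other two ID genes were at or near 0. Id1 had 9 counts in p52Ki replicate 3 and 0 counts in the other p52Ki libraries and in WT. Id4 had 0 counts in all 9 libraries. A count of 0 allows up to 3 counts, or 0.436 to 0.652 CPM in a p52Ki library and 0.394 to 0.427 CPM in a WT library. These floors cover counting error only, since amplified reads without molecular identifiers are not independent molecules. Neither gene passed the filter on low counts.

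Levels can be set between genes only per length, so CPM was divided by the length of each gene's annotated exons in kilobases. On that scale Id3 was the most abundant of the 5, at 75.7 ± 8.34 CPM per kilobase in p52Ki and 88.4 ± 17.3 in WT (SD, n = 5 and 4). Tcf3 followed at 42.6 ± 4.20 in p52Ki and 39.0 ± 13.0 in WT, then Id2 at 15.2 ± 4.89 and 22.0 ± 1.88. Tcf4 was at 10.4 ± 1.69 and 8.95 ± 0.646 CPM per kilobase, and Tcf12 at 3.47 ± 1.03 and 1.88 ± 0.828. Id3 was above Tcf3, Tcf3 above Id2, and Tcf4 above Tcf12 within each of the 9 libraries. Id2 was above Tcf4 in 4 of 5 p52Ki libraries and in 4 of 4 WT libraries.

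The place of Tcf4 depends on the length chosen. Its annotated exons cover 27382 bases over 62 transcripts, so a single transcript is much shorter than that union. Per kilobase of the longest annotated transcript, Tcf4 stood at 33.1 ± 5.39 in p52Ki and 28.6 ± 2.06 in WT, and Id2 at 18.8 ± 6.06 and 27.2 ± 2.32 (SD, n = 5 and 4). On that scale Tcf4 was above Id2 in 5 of 5 p52Ki and 3 of 4 WT libraries. Id3 and Tcf3 remained first and second and Tcf12 last in each of the 9 libraries.

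**Figure D2:**
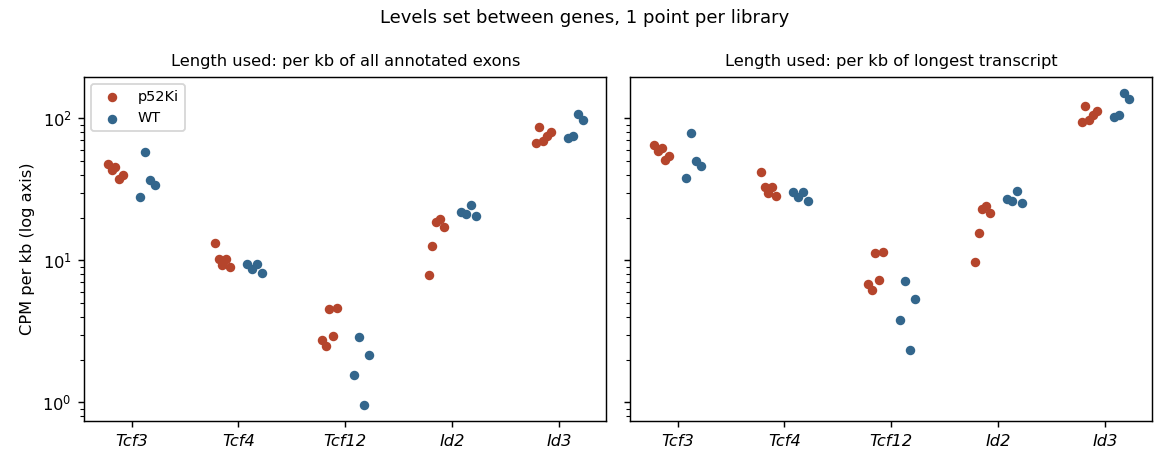
Levels of the 5 genes in CPM per kilobase on a log axis, 1 point per library, p52Ki in red to the left of WT in blue for each gene. The left panel divides by the length of all annotated exons and the right panel by the longest transcript. Id3 is highest and Tcf12 lowest in both, and Tcf4 and Id2 change places.

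Tcf3 made up most of the summed E protein level per kilobase of exon, 75.4% ± 1.44 in p52Ki and 77.4% ± 4.76 in WT. Tcf4 made up 18.4% ± 2.23 and 18.9% ± 4.87, and Tcf12 6.19% ± 1.93 and 3.76% ± 1.23 (SD, n = 5 and 4). Per kilobase of the longest transcript Tcf3 made up 58.3% ± 1.97 in p52Ki and 60.6% ± 6.76 in WT, and Tcf4 33.1% ± 3.57 and 34.1% ± 7.30. Of the summed ID level, Id3 made up 83.4% ± 4.80 in p52Ki and 79.8% ± 2.75 in WT. The ratio of Id3 to Id2 ran from 3.73 to 8.51 in p52Ki and from 3.34 to 4.81 in WT, with the 2 highest ratios in p52Ki replicates 1 and 2.

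The 3 E protein genes summed to 56.4 ± 5.14 CPM per kilobase of exon in p52Ki and 49.8 ± 13.4 in WT. The 2 ID genes summed to 90.9 ± 10.1 CPM per kilobase in p52Ki and 110 ± 18.3 in WT (SD, n = 5 and 4). The ratio of the E protein sum to the ID sum was 0.850, 0.556, 0.674, 0.533 and 0.547 in p52Ki replicates 1 to 5, against 0.411, 0.720, 0.355 and 0.372 in WT replicates 1 to 4. WT replicate 2, which had the highest Tcf3 and Tcf12 of its genotype, was above every p52Ki library but replicate 1, and the other three WT libraries were below all of p52Ki. On the log2 scale the ratio averaged -0.69 ± 0.29 in p52Ki and -1.17 ± 0.47 in WT, a difference of 0.48. The ratio was built from the members themselves and was not tested. The groups overlapped, and the difference ran from 0.37 to 0.71 with 1 library left out. Per kilobase of the longest transcript the ratio ran from 0.703 to 1.10 in p52Ki and from 0.455 to 0.867 in WT. The value of 1.10 was that of p52Ki replicate 1, and the log2 difference on that scale was 0.49.

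**Figure D3:**
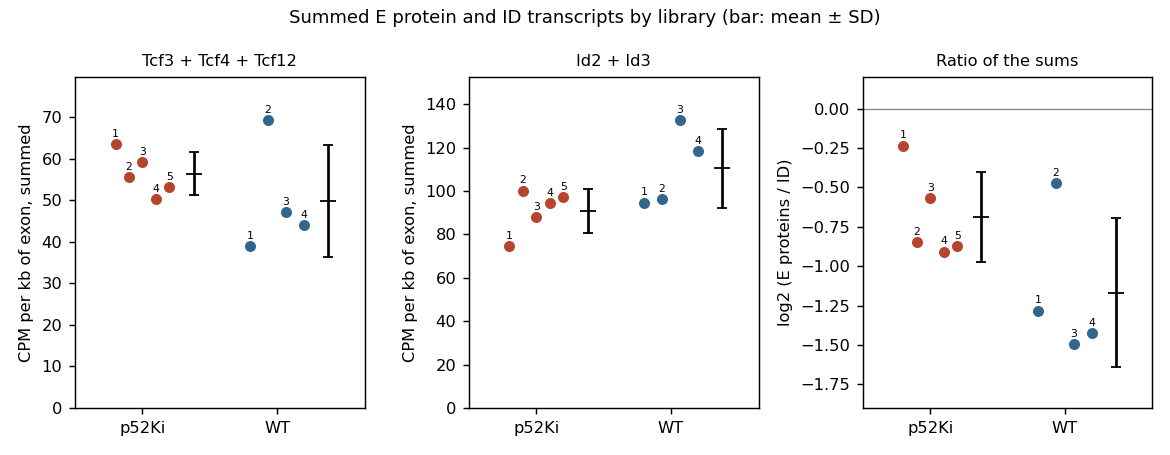
Summed level of Tcf3, Tcf4 and Tcf12, summed level of Id2 and Id3, both in CPM per kilobase of exon, and the log2 ratio of the sums, by library, p52Ki in red and WT in blue. Bars are the mean ± SD (n = 5 and 4). WT replicate 2 stands at -0.47 on the ratio axis, among the p52Ki libraries (-0.91 to -0.23), with the other WT libraries at -1.28 to -1.49.

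Genes known in B lineage cells as targets of E proteins moved in both directions. Of 25 such genes 22 were tested, 3 rose and 4 fell, against 4.49% and 4.04% of all genes, and their median log2 fold change was 0.36 against 0.03 over all genes. Irf4, a factor of activated B cells and plasma cells, averaged 149 CPM in p52Ki and 34.6 CPM in WT (2.11 ± 0.26, edgeR adjusted p = 0.00172).

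Mef2b, a germinal centre transcription factor, changed by -1.16 ± 0.20, and Cd79a, a chain of the B cell receptor complex, by 0.85 ± 0.16 (edgeR adjusted p = 0.00626 and 0.00906). Mef2b is also among the germinal centre markers above. Ebf1, an early B lineage factor, averaged 463 CPM in p52Ki and 232 CPM in WT without passing (1.00 ± 0.29, edgeR adjusted p = 0.0551). It passed with no filter on low counts, with a filter of 10 CPM, without p52Ki replicate 4, with DESeq2 and with the centred base composition correction (adjusted p from 0.00742 to 0.0447). The next 3 genes, which were called, are outside the rule for named genes and were chosen after their values were seen. Ccnd3, a D cyclin, changed by -0.71, Pou2af1, a B cell coactivator, by -0.68, and Rag2, of the recombinase, had 194 counts over 4 of 5 p52Ki libraries and 0 in WT. Set against a floor of 3 counts over the summed WT libraries, the summed p52Ki level of Rag2 was 63.7-fold higher. That ratio allows for counting error in WT only and not for the spread between p52Ki libraries, of which replicate 4 had 0 counts. It is therefore not a lower bound on the difference. The fitted log2 fold change of Rag2 was 8.44, with a 95% interval of 4.11 to 12.8. Over the alternatives it ran from 3.82 to 8.78. Without 1 library, Pou2af1 kept its call in 5 of 9 fits (edgeR adjusted p up to 0.0881). The call was lost when WT replicate 1, WT replicate 4, p52Ki replicate 1 or p52Ki replicate 3 was removed. Rag2 kept its call in 1 of the 5 such fits in which it was tested, losing it without each WT library (edgeR adjusted p up to 0.0569). The Rag2 call was also lost with limma-voom.

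Among 18 partners and cofactors of E proteins 11 were tested, of which 1 rose and 0 fell, against 4.49% and 4.04% of all genes. The median of their log2 fold changes was 0.24. Cbfa2t3, a corepressor that binds E proteins, stood at 93.9, 89.2, 79.8, 54.7 and 96.5 CPM in p52Ki replicates 1 to 5, against 31.6, 54.8, 44.4 and 49.0 CPM in WT replicates 1 to 4. p52Ki replicate 4 overlapped the WT range, and the others were above it. The log2 fold change was 0.88 ± 0.24 (edgeR adjusted p = 0.0397), and the call was kept in 2 of 9 leave-one-out fits (removing WT replicate 2 or p52Ki replicate 4; adjusted p up to 0.0949). It was also lost with limma-voom and with the uncentred base composition correction. Kat2a, a histone acetyltransferase, and Bhlha15, a helix-loop-helix factor of secretory cells, had log2 fold changes of 0.70 ± 0.22 and 2.54 ± 1.17 and did not pass (edgeR adjusted p = 0.0729 and 0.238). Kat2a passed with DESeq2 (adjusted p = 0.00771). Bhlha15 was at 3.94 without WT replicate 3 and 4.39 with limma-voom, and passed with limma-trend (adjusted p = 0.102, 0.0856 and 0.0320). Lyl1, a helix-loop-helix partner of E proteins named here after its values were seen, averaged 179 CPM in p52Ki and 178 CPM in WT. Of the 18 genes 7, among them Tal1 and Msc, had 0 counts in all libraries.

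Of 20 genes linked, in either direction, to the induction of ID genes or to the turnover of ID proteins, 15 were tested. Of those 1 rose and 2 fell, against 4.49% and 4.04% of all genes. The median of their log2 fold changes was -0.12. Egr1, an early response factor that induces Id3 in mouse thymocytes, stood at 101, 154, 165, 119 and 76.5 CPM in p52Ki replicates 1 to 5, against 42.8, 76.6, 40.8 and 28.1 CPM in WT replicates 1 to 4. WT replicate 2 lay just above p52Ki replicate 5, and every other p52Ki library was above all of WT. Egr1 rose by 1.39 ± 0.31 on the log2 scale (edgeR adjusted p = 0.0198), a call lost without WT replicate 1 or 3 or p52Ki replicate 3 (adjusted p up to 0.0549).

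Usp1, a protease that removes ubiquitin from ID proteins in human cells, stood at 15.7, 29.3, 29.7, 36.0 and 8.91 CPM in p52Ki replicates 1 to 5, against 76.0, 73.2, 70.8 and 67.3 CPM in WT replicates 1 to 4. The groups did not overlap, as for 13.8% of all genes tested, and Usp1 fell by 1.58 on the log2 scale (± 0.35 SE, edgeR adjusted p = 0.0187). Cdc20, an activator of the ubiquitin ligase that drives mitosis, averaged 251 CPM in p52Ki and 624 CPM in WT (-1.31 ± 0.33, edgeR adjusted p = 0.0316). Its call was kept in 1 of 9 leave-one-out fits, the one that removed p52Ki replicate 4 (adjusted p up to 0.0772). Tgfbr1, a TGF-beta receptor chain, and Smad2, which relays its signal, had log2 fold changes of -1.49 ± 0.48 and -0.42 ± 0.19 and did not pass (edgeR adjusted p = 0.0836 and 0.212). Tgfbr1 passed with DESeq2 and limma-trend (adjusted p = 0.0279 and 0.0487), and both genes passed with the uncentred base composition correction (edgeR adjusted p = 0.0278 and 0.0346).

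**Figure D4:**
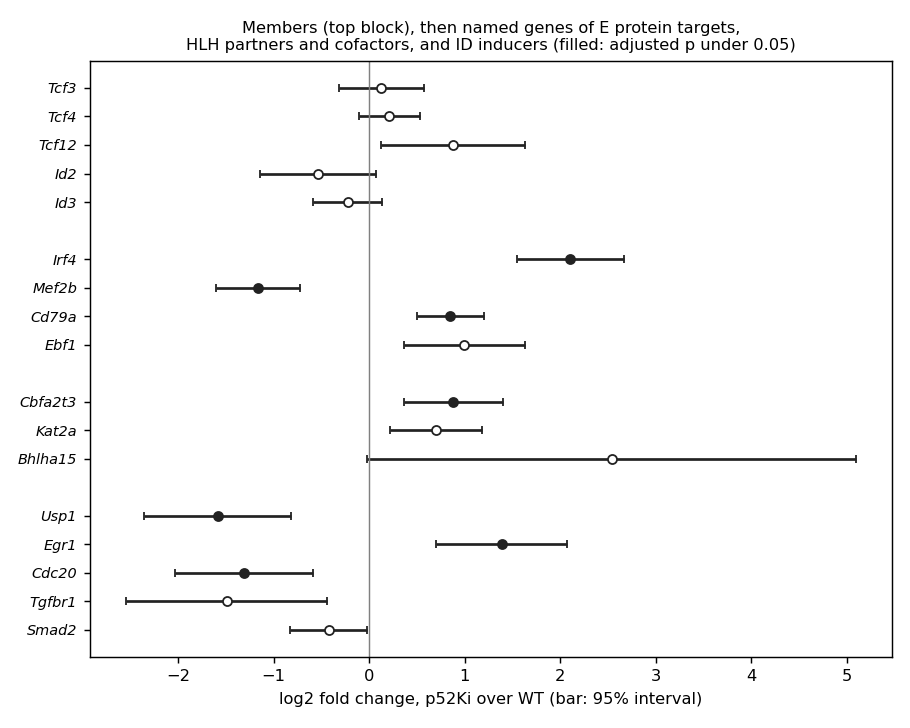
Log2 fold change of p52Ki over WT with its 95% interval for the 5 genes (top block) and for genes named from the 3 lists in turn, filled where the edgeR adjusted p was under 0.05. The 5 genes are all open, between -0.53 and 0.88, while Irf4 stands at 2.11 and Mef2b at -1.16.

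Markers of other cells that use these genes were summed by library. Of the natural killer and innate lymphoid cell markers 2 of 8 were tested, and the 8 summed to 2.65 to 31.9 CPM in p52Ki and 0 to 14.7 CPM in WT. Il7r, at 9.93 ± 6.62 CPM in p52Ki and 0.0664 ± 0.133 CPM in WT, rose (edgeR adjusted p = 0.0078), as did 4.49% of all genes tested. Prf1, the other one tested, did not pass (log2 fold change 3.48, edgeR adjusted p = 0.331). Ncr1, which defines natural killer cells, was at 0.844 and 1.11 CPM, and Eomes had 0 counts in p52Ki and 23 in WT. Klrb1c, Klrk1, Gzma and Gzmb had 25, 53, 70 and 41 counts in p52Ki and 0, 3, 35 and 8 in WT. The 8 conventional dendritic cell markers summed to 13.2 to 36.5 CPM in p52Ki and 45.2 to 67.8 CPM in WT. Most of that was Flt3, the 1 marker tested, at 21.6 ± 9.59 and 58.5 ± 10.3 CPM. It fell (edgeR adjusted p = 0.02665), as did 4.04% of all genes tested. Itgax, Clec9a and Clec10a had 74, 19 and 10 counts in p52Ki and 0, 0 and 1 in WT. Zbtb46 and Xcr1 had 26 and 0 counts in p52Ki and 55 and 14 in WT. Batf3 and Cd209a had 0 counts in all libraries. Id2 itself stood at 19.2 to 47.8 CPM in p52Ki and 49.6 to 60.1 CPM in WT. The 8 plasmacytoid dendritic cell markers summed to 865 to 1191 CPM in p52Ki and 882 to 1178 CPM in WT, nearly all from Irf8, which B cells also express. Of the 3 tested 1, Bst2, rose, against 4.49% of all genes tested. Bst2, an interferon-induced membrane protein, was at 37.1 ± 8.17 CPM in p52Ki and 8.92 ± 5.01 CPM in WT (edgeR adjusted p = 0.0152). Pacsin1 and Irf8 did not pass (log2 fold changes -0.59 and 0.055, edgeR adjusted p = 0.3215 and 0.882). Siglech, which defines plasmacytoid dendritic cells, was at 2.31 ± 3.21 CPM in p52Ki and had 0 counts in WT. Klk1 had fewer counts in p52Ki (7, against 43 in WT). Ccr9, Cox6a2 and Lair1 had more (100, 6 and 57, against 44, 0 and 45). The part of these cells in the Id2 and Tcf4 values was not tested.

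The genes whose pattern over the 9 libraries was most like that of each member were found by the root mean square difference in centred log2 CPM, among 9552 genes. For Id2 they were Haus3, Ppp2r1a and Bzw2, at 0.13, 0.16 and 0.17 log2 units, where Id2 itself varied by 0.47. For Tcf12 they were Odr4, Ddi2 and Dhx9, at 0.27, 0.28 and 0.31, where Tcf12 varied by 0.67. For Tcf3 they were Eps15, Dhx8 and Adar, for Tcf4 Tmem33, Rbm6 and Zfp706, and for Id3 Psmb2, Emg1 and Pbdc1, at 0.082 to 0.17. Of these 15 genes Ddi2 passed the test (1.02 ± 0.28, edgeR adjusted p = 0.0444), against 8.53% of all genes tested. Ddi2 was picked by its values in the same 9 libraries, so its call is not separate from the Tcf12 pattern. Its call was kept in 1 of 9 leave-one-out fits, the one that removed p52Ki replicate 4 (adjusted p up to 0.106). It was also lost with limma-voom and with the centred and the uncentred base composition correction (adjusted p = 0.0607, 0.0544 and 0.106). With values centred within each genotype, 5 of the 15 remained.

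**Figure D5:**
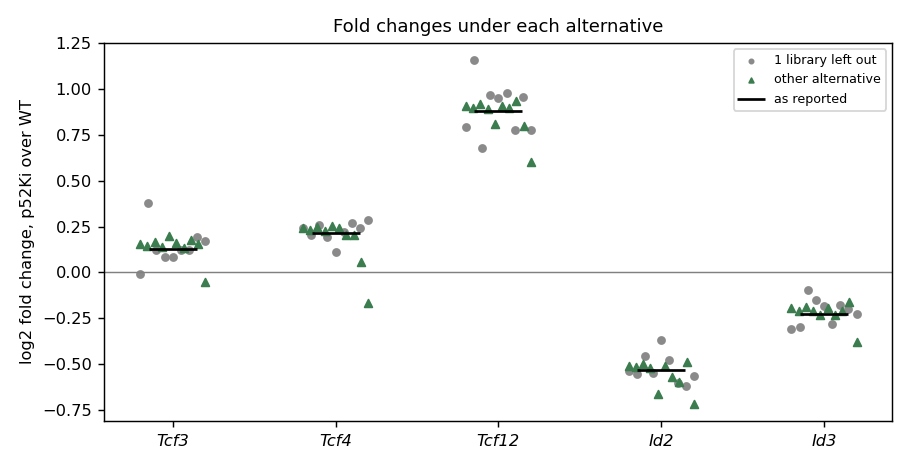
Log2 fold change of p52Ki over WT for the 5 genes under each alternative, with the reported value as a black line, fits without 1 library as grey points and the other alternatives as green triangles. Tcf12 stays between 0.60 and 1.16 and Id2 between -0.71 and -0.37, while Tcf3 and Tcf4 reach -0.05 and -0.17 with the uncentred base composition correction.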

How the data were processed

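Raw counts per gene were deposited by the authors for 55536 genes, and log2 CPM values for 12849 genes. Per the labels' protocols, low-input RNA was amplified by the SMART-Seq v2 method with Nextera XT libraries, which mark neither strand nor molecule. Reads were handled with featureCounts (Subread 1.6.2), SAMtools 1.8 and HISAT2 2.1.0 on GRCm38, per the submitters' processing notes. The sources used here name neither the annotation release nor the strand setting. The deposited log2 values equalled edgeR's log CPM (TMM factors, prior count 2) (largest difference 5.0e-14).

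Differences were tested on the counts of all 9 libraries in R 4.3.3 with edgeR 4.0.16 (filterByExpr, TMM, robust quasi-likelihood F test, two-sided, no covariate), adjusted by Benjamini-Hochberg over 12849 genes at a threshold of 0.05. SE was computed as log2 fold change divided by the root of F. CPM uses TMM-scaled library sizes. Positions and lengths are from GENCODE M21 (GRCm38), in which all 55536 identifiers were found under the deposited names. The test was checked on simulated counts. Alternatives were DESeq2 1.42.0, limma 3.58.1 (voom and trend), other scaling and filters, the replicate number as a block, removal of antigen receptor genes, and each library left out. The GC and length correction, in an uncentred form and a centred one made after the uncentred result was seen, and the longest-transcript lengths were added after seeing the data. The members and lists were chosen with earlier results of these data known. Named were the 5 genes, Id1 and Id4, up to 4 called and 2 uncalled genes of smallest p per list, and the 3 genes of most similar pattern per member with mean log2 CPM of at least 1. Some results that this rule selects are not reported here.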

Additional observations from a re-analysis of the deposited data

Results flagged for a closer look

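Id1 stood at 1.45 CPM in p52Ki replicate 3, where the other 4 p52Ki libraries and the 4 WT libraries had 0 counts. The value rests on 9 counts, and with every other library at 0 any count in a single library would have stood out. Of 24 groups of values examined this way 1 stood out, and chance alone gives about 1 in 20.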

How the results depend on the processing

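None of the 5 genes was called under any of the 19 alternatives, and Tcf12, Id2 and Id3 kept their direction under all of them. With the uncentred GC and length correction, run first and followed by a centred form once its result was known, Tcf3 was at -0.051 and Tcf4 at -0.17. That correction gave 1667 called genes, 447 higher and 1220 lower in p52Ki, 0 partners and cofactors and 5 ID inducers and turnover genes, with a median log2 fold change of -0.20 over all genes. The centred form gave 1089. Tcf3 was at -0.0058 without WT replicate 1, and its log2 fold change ran from -0.0058 to 0.38 with 1 library left out. The count over all genes, 1096, was 2047 with DESeq2 and 625 to 1108 with 1 library left out. It fell to 714 when WT replicate 1 was removed, 711 for WT replicate 4, 651 for p52Ki replicate 1, 625 for p52Ki replicate 3 and 716 for p52Ki replicate 5. With the replicate block it was 129, of which 97 were higher in p52Ki. Replicate numbers did not pair the libraries, since same-numbered libraries deviated with correlations of -0.042 to -0.0090 and 1 of 4 matched its own number best. With the replicate block 2 E protein targets were called, 0 partners and cofactors and 1 gene of the ID inducers and turnover list. DESeq2 called 12 targets and 2 partners and cofactors, limma-trend 2 and limma-voom 0 partners and cofactors. With 1 library left out, 5 to 10 targets, 0 to 1 partners and cofactors and 1 to 3 ID inducers and turnover genes were called. Among the 29 other genes selected by rule, 551 alternative values held 37 lost calls, 16 gained calls and 3 reversals (Dhx8 -0.0074, Rbm6 -0.065, Zfp706 -0.022), all 3 with the uncentred correction and all above its median of -0.20. These causes were not tested. The width of the 95% intervals given for the 5 genes sets what this number of libraries could resolve.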
